A study of Rattus norvegicus with 24 samples.

Results

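The genes described here make and regulate the calcium cycle of the sarcoplasmic reticulum in heart muscle. They were chosen by name, from knowledge of the pathway, as Atp2a2, Pln, Ryr2, Casq2, Slc8a1, Trdn, Jph2, Hrc, Sln and Camk2d. Earlier results of these data were known when the list was made. Of these 10 genes, 9 were listed in each of the 4 deposited tables and passed the filter on low values there, and Sln, which encodes sarcolipin, was listed in none. The tables hold 10797 genes in all, 10129 of them in every table. RNA came from the myocardium of Sprague-Dawley rats. Mitral regurgitation (MR) was produced through a left thoracotomy by piercing a mitral leaflet, and Sham rats had the same operation with the leaflet left intact. The groups were MR at 2 weeks (n = 4), MR at 10, 20 and 40 weeks (n = 5 each) and Sham at 2 weeks (n = 5). All groups share the strain and the thoracotomy, and no drug or genetic change is labelled in any. Sham hearts were sampled only at 2 weeks, so at 10, 20 and 40 weeks time with MR cannot be told apart from age or from time since surgery. Nor can it be told apart from a batch shared by the libraries of a time, also in comparisons between MR times. The labels name no chamber, sex, age or batch, nor is it stated whether libraries are separate animals, so a p-value here measures the spread between libraries.

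In a heartbeat, calcium that enters through the L-type channel opens ryanodine receptors on the facing sarcoplasmic reticulum, and the calcium released there starts contraction. The heart relaxes when the SERCA2a pump returns calcium to the reticulum and the sodium-calcium exchanger carries the rest out of the cell. Phospholamban restrains the pump until it is phosphorylated, calsequestrin buffers calcium inside the store, and junctophilin holds the reticulum and the surface membrane together at the dyad, where release takes place.

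Between 7.69 M and 12.1 M reads per library fell on listed genes. Values are the authors' normalised counts, which are gene counts divided by a factor for each library. Values of an MR time were tested against the Sham values of the same table by limma on log2(value + 1). A gene is said to pass, rise or fall where its p, adjusted by Benjamini and Hochberg over all genes tested, was under 0.05. In the 40 week table, the summed level of 9 cardiomyocyte markers ran from 29962 to 44299 normalised counts in MR hearts and from 40987 to 52951 in Sham hearts. Among defining markers, Ttn of cardiomyocytes was not listed, nor were Bmp10 and Upk3b from the atrial list, nor Myh1, Myh4, Tnni2, Actn3, Mylpf and Atp2a1 of skeletal muscle, nor Adipoq, Plin1 and Cidec of fat cells.

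The sequences around the start sites are shown because several of these genes rose together at 40 weeks. Of the 10 genes, 9 matched an entry of RefSeq promoters (assembly GRCr8, 250 bases before to 50 bases after the start). The start sites were taken as listed and not checked against these data, so a window may lie away from the start used in these hearts. The 4 below belong to 3 genes that rose then, for the pump, the release channel and junctophilin, and to the pump's inhibitor, which did not pass. Letters run 5′ to 3′ on the strand of the gene, and capitals mark the GC box GGGCGG read on either strand.
Atp2a2 (chr12:39733269-39733568, plus strand): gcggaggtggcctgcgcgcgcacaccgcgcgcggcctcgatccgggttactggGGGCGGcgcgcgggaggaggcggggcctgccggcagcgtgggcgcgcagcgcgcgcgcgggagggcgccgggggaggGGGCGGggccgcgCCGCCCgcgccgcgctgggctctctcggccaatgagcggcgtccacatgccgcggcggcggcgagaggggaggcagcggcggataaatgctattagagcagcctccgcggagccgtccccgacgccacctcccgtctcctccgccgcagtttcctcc
Ryr2 (chr17:63081277-63081576, plus strand): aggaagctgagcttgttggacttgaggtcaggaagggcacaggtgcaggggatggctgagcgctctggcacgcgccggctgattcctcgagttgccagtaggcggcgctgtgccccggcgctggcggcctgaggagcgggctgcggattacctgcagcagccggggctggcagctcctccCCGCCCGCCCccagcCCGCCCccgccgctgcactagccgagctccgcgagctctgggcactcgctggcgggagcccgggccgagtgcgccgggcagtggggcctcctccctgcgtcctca
Jph2 (chr3:172477872-172478171, minus strand): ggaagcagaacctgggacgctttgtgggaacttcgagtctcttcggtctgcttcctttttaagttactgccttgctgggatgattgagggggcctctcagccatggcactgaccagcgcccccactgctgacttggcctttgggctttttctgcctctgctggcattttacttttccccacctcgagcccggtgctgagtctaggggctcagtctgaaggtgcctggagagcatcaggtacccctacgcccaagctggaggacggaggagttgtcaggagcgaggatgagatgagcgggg
Pln (chr20:33172244-33172543, plus strand): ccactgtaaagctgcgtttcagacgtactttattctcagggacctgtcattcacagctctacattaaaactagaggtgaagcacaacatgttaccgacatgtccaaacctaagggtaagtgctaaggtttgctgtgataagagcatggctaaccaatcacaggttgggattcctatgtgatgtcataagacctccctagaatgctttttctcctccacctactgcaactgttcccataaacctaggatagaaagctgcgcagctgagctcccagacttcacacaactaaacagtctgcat
The genes Ryr2 and Slc8a1 are on the plus strand in GRCr8 and on the minus strand in rn6, the build of the deposited tables. The GC box occurred 3 times each in the windows of Atp2a2, Ryr2 and Camk2d, with the first 2 matches of Ryr2 overlapping, and had no match in the other 6. It occurred in 33.1% of the 33469 rat promoters of this length. The window was 79% G and C in Atp2a2, 73% in Ryr2 and 74.7% in Camk2d, against 58% in Jph2, 45% in Pln and 36.3% in Slc8a1. The E-box CANNTG, searched on both strands, had a match in Atp2a2, Ryr2, Trdn, Pln, Casq2 and Slc8a1 and none in Jph2, Hrc and Camk2d, beside 72.1% of all windows. TATAAA (14.2% of all windows) and AGATAA (11.6%) had no match in any of the 9. Among the 6 genes that rose at 40 weeks, some windows held a GC box or an E-box and others did not.

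At 40 weeks, 6 of the 9 genes rose relative to Sham and none fell. Jph2 rose 4.72-fold, and Ryr2, Atp2a2 and Slc8a1 rose 2.17-fold, 2.01-fold and 1.95-fold. Camk2d and Trdn rose 1.35-fold and 1.32-fold. Casq2, Hrc and Pln did not pass. Of all 10094 genes tested, 47.3% were called at this time and 16.3% were called higher, beside 66.7% of these genes. The list was made with earlier results of these data known, and the shares are not matched for gene length. The median log2 fold change was 0.43 over the 9 genes and -0.15 over all genes tested. The split of calls over all genes depended on the scaling: 1648 were higher and 3124 lower as deposited, and 2391 higher and 2196 lower after libraries were rescaled by the median of gene-wise ratios, a shift that moved the median of all genes to -0.01. The same 6 genes passed after rescaling.

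**Figure D1:**
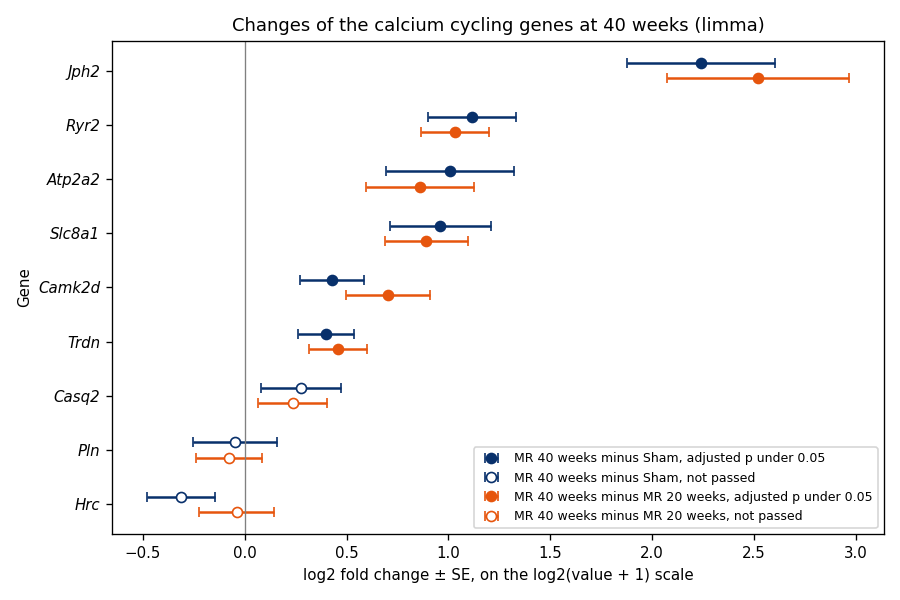
Log2 fold change ± SE on the log2(value + 1) scale for the 9 genes, MR at 40 weeks minus Sham (dark blue) and MR at 40 weeks minus MR at 20 weeks (orange). Filled points passed and open points did not. Jph2 lies farthest to the right at 2.24 and 2.52, and Casq2, Pln and Hrc are open in both comparisons.

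Of the pump and its inhibitor, the pump gene rose at 40 weeks and the inhibitor gene did not pass. Atp2a2 (rn6 chr12:39553903-39603327, plus strand) encodes SERCA2, the pump that refills the store. Its normalised counts were 5301, 7446, 6228, 8305 and 6351 in MR hearts at 40 weeks, against 4974, 2184, 1750, 4189 and 4938 in Sham hearts. Every MR library lay above every Sham library, a pattern that 9.06% of all tested genes showed, while 20.2% showed the opposite. The mean was 6726 ± 1165 in MR hearts and 3607 ± 1537 in Sham hearts (SD, n = 5 each), a log2 fold change of 1.01 ± 0.31 (SE, limma adjusted p = 0.0169). Sham replicates 2 and 3 were far below the other Sham libraries. Leaving out Sham replicate 2 gave 0.78 with an adjusted p of 0.0534, and the call held in the other 9 of 10 omissions.

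Pln (rn6 chr20:34633157-34642905, plus strand), which encodes phospholamban, had 1374, 1722, 1984, 2099 and 1474 normalised counts in MR hearts at 40 weeks, against 2366, 1604, 1291, 1887 and 1859 in Sham hearts. The groups overlapped over most of their range. The log2 fold change was -0.05 ± 0.21 (SE), with a 95% interval from -0.49 to 0.39 and an adjusted p of 0.863 by limma. It was 0.11 after median-ratio rescaling.

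The ratio of Pln to Atp2a2 within a library does not depend on how the library was scaled. The ratio was not adjusted for the length of the genes, which is taken up below and differs between Pln and Atp2a2. On the log2 scale it was -1.95, -2.11, -1.65, -1.98 and -2.11 in MR hearts at 40 weeks, against -1.07, -0.45, -0.44, -1.15 and -1.41 in Sham hearts. All 5 MR libraries were below every Sham library. The mean was -1.96 ± 0.19 in MR hearts and -0.90 ± 0.44 in Sham hearts (SD, n = 5 each), a difference of -1.06. A two-sided exact permutation test gave p = 0.00794, the smallest these group sizes allow. After Benjamini-Hochberg adjustment over 8 ratio tests it was 0.0635, which misses 0.05. With this ratio alone at the smallest p, the adjusted value could not have come under 0.05, so the miss says nothing about the separation. At 2, 10 and 20 weeks the difference was -0.11, 0.14 and -0.12, each with an adjusted exact permutation p of 0.780.

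**Figure D2:**
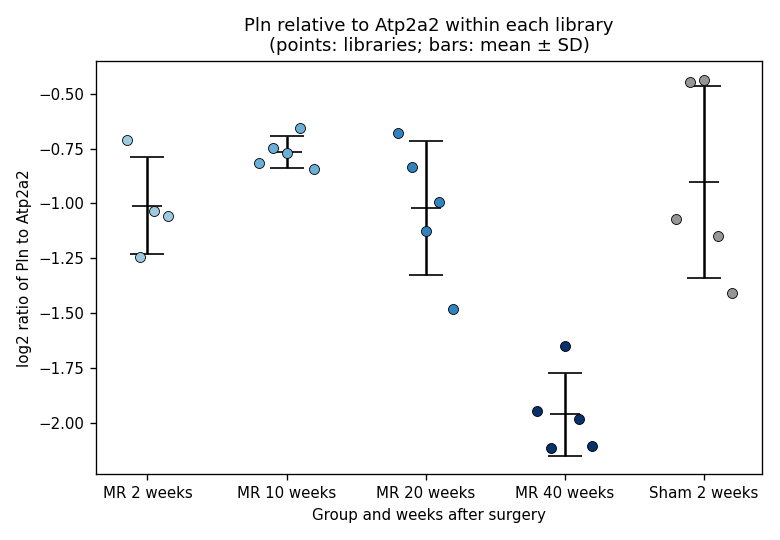
Log2 ratio of Pln to Atp2a2 in each library, by group and weeks after surgery. Points are libraries, and bars give the mean ± SD. The 5 MR libraries at 40 weeks lie between -2.11 and -1.65, below all other libraries, and Sham replicates 2 and 3 have the highest ratios at -0.45 and -0.44.

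Of the release channel and the proteins that work with it at the store, Ryr2 and Trdn rose, and Casq2 and Hrc did not pass. Ryr2 (rn6 chr17:65533998-66130713, minus strand) encodes the ryanodine receptor of heart muscle. It had 875, 948, 655, 1289 and 1081 normalised counts in MR hearts at 40 weeks, against 589, 366, 308, 465 and 510 in Sham hearts. No MR library overlapped with Sham. The mean was 970 ± 236 in MR hearts and 448 ± 112 in Sham hearts (SD, n = 5 each), and the log2 fold change was 1.12 ± 0.22 (SE, limma adjusted p = 0.00116).

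Trdn (rn6 chr1:25403390-25839199, minus strand) encodes triadin, which ties calsequestrin to the ryanodine receptor. Its levels were 22.6, 27.1, 20.52, 29.9 and 24.1 normalised counts in MR hearts at 40 weeks, against 20.4, 19.6, 14.4, 17.1 and 21.4 in Sham hearts. The lowest MR library lay within the Sham range, the other 4 lay above it, and the log2 fold change was 0.40 ± 0.14 (SE, limma adjusted p = 0.0294). It passed in 6 of 10 omissions of a library, with log2 fold changes of 0.32 to 0.46 and adjusted p-values up to 0.0819.

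Casq2 (rn6 chr2:204512361-204568644, plus strand), the gene of cardiac calsequestrin, had 577, 657, 672, 705 and 698 normalised counts in MR hearts at 40 weeks, against 600, 509, 337, 767 and 606 in Sham hearts. Sham replicate 4 exceeded every MR library. The log2 fold change of 0.28 did not pass (limma adjusted p = 0.267), and its 95% interval ran from -0.15 to 0.70. DESeq2 on recovered reads gave it 0.41 with an adjusted p of 0.0375, and no other setting added a gene to the 6. Hrc (rn6 chr1:101324788-101328392, plus strand) encodes the histidine-rich calcium binding protein of the store. It had 432, 617, 623, 513 and 458 normalised counts in MR hearts at 40 weeks, against 636, 615, 539, 796 and 690 in Sham hearts. Its log2 fold change of -0.31 did not pass (limma adjusted p = 0.133, 95% interval -0.67 to 0.04).

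Jph2 showed the largest change of the 9 genes and had rank 21 among 10094 genes ordered from the highest log2 fold change. The gene (rn6 chr3:159712325-159775644, minus strand) encodes junctophilin 2, the protein that bridges the surface membrane and the sarcoplasmic reticulum in cardiomyocytes. Its normalised counts were 240, 311, 181, 329 and 276 in MR hearts at 40 weeks, against 59.8, 30.1, 23.7, 108 and 103 in Sham hearts. The lowest MR library lay well above the highest Sham library. The mean was 267 ± 59.0 in MR hearts and 65.0 ± 39.6 in Sham hearts (SD, n = 5 each), and the log2 fold change was 2.24 ± 0.36 (SE, limma adjusted p = 4.28e-04).

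Slc8a1 (rn6 chr6:4255699-4520639, minus strand) encodes the sodium-calcium exchanger NCX1, which moves calcium out across the surface membrane. Its levels were 136, 154, 122, 213 and 177 normalised counts in MR hearts at 40 weeks, against 97.5, 59.8, 46.5, 135 and 90.8 in Sham hearts. Only Sham replicate 4 reached into the MR range. The log2 fold change was 0.96 ± 0.25 (SE, limma adjusted p = 0.0065). The log2 ratio of Slc8a1 to Atp2a2 within a library was -5.39 ± 0.22 in MR hearts at 40 weeks and -5.35 ± 0.34 in Sham hearts (SD, n = 5 each). The difference of -0.05 was smaller than either SD (two-sided exact permutation test, adjusted p = 0.818).

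Camk2d (rn6 chr2:230901126-231130337, plus strand) encodes the delta isoform of the calcium/calmodulin-dependent kinase II, which phosphorylates phospholamban and the ryanodine receptor. It had 20.47, 18.9, 14.6, 24.2 and 25.2 normalised counts in MR hearts at 40 weeks, against 17.9, 16.02, 12.05, 13.1 and 15.7 in Sham hearts. MR replicate 3 lay within the Sham range, and the other 4 MR libraries lay above it. The log2 fold change was 0.43 ± 0.16 (SE, limma adjusted p = 0.0367), and the call held in 4 of 10 omissions of a library, with adjusted p-values up to 0.0973.

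The length of the gene moved with the change at 40 weeks. Over all tested genes, the log2 fold change and the genomic span of the gene had a Spearman correlation of 0.33 at 40 weeks, against 0.16, -0.08 and -0.02 at 2, 10 and 20 weeks. The median log2 fold change at 40 weeks went up over quintiles of genes by span, shortest first: -0.41, -0.25, -0.14, -0.02 and 0.10. The share of genes called higher went up in the same order: 6.63%, 10.1%, 13.5%, 21.7% and 29.7%. Ryr2, Slc8a1, Trdn and Camk2d belong to the quintile with the longest spans, Atp2a2, Casq2 and Jph2 to the next, Pln to the second shortest and Hrc to the shortest. Within each library, the correlation of a gene's deviation from its mean with its span was 0.12 to 0.37 in MR hearts at 40 weeks, and -0.33 to 0.04 in all other libraries. With the span trend removed from every library, an alternative chosen after seeing the data, Jph2, Ryr2, Atp2a2 and Slc8a1 still passed with log2 fold changes of 2.18, 1.02, 0.99 and 0.81. Camk2d (0.27, adjusted p = 0.140) and Trdn (0.27, adjusted p = 0.0899) did not. The log2 fold changes of Hrc and Pln changed sign under this setting, and neither passed.

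**Figure D3:**
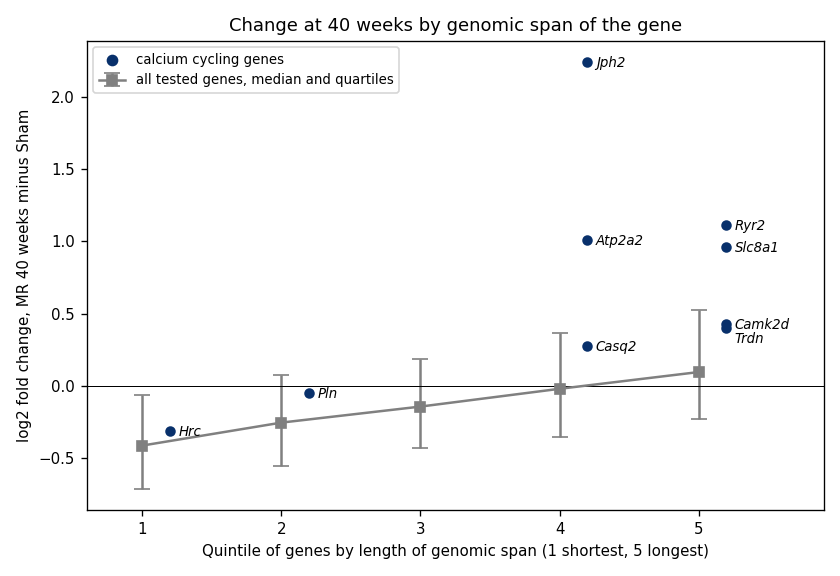
Log2 fold change of MR at 40 weeks minus Sham on the log2(value + 1) scale, by quintile of genes ordered by genomic span. Grey squares and bars give the median and quartiles of all tested genes, and blue points are the 9 genes. The grey medians go up from -0.41 to 0.10, Hrc and Pln lie in the 2 quintiles with the shortest spans, and Jph2 lies above the upper quartile of its quintile.

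Some cell type markers also passed at 40 weeks, when 47.3% of all 10094 genes tested were called. Of all genes, 1648 were higher and 3124 lower as deposited. After median-ratio rescaling 2391 were higher and 2196 lower, and without the span trend 2190 and 2072. Of 9 cardiomyocyte markers tested, 4 fell and none rose as deposited. After median-ratio rescaling 4 fell and 2 rose, and without the span trend 1 fell and 1 rose. Of 8 fibroblast markers, 3 fell and 1 rose as deposited, 1 fell and 1 rose after rescaling or without the span trend, and their summed level was 672 to 971 normalised counts in MR hearts and 943 to 2584 in Sham hearts. Of 6 endothelial markers, 3 fell and 1 rose, and of 7 macrophage markers, 2 fell. After rescaling these were 2 and 1 falls. Of 5 atrial markers, 2 rose (Kcnj3 and Dkk3) and 1 fell (Myl4), with summed levels of 165 to 1967 normalised counts in MR hearts and 144 to 607 in Sham hearts. Most of this sum was Nppa, at 571 ± 730 in MR hearts and 242 ± 175 in Sham hearts (SD), which did not pass. Myl4 averaged 2.00 in MR hearts and 5.79 in Sham hearts, and Myl7, which did not pass, 1.19 and 3.97. Of 3 fat cell markers, 2 fell as deposited and 1 fell after rescaling, with sums of 180 to 302 in MR hearts and 373 to 582 in Sham hearts. Of 6 smooth muscle and pericyte markers and of 3 skeletal muscle markers, 1 rose and 1 fell in each list as deposited, and of 3 blood markers none passed. The skeletal muscle marker that rose was Myh2, with 1.56 ± 0.84 normalised counts in MR hearts and 0.60 ± 0.35 in Sham hearts (SD). It lies near the floor and passed the filter on low values only through the MR libraries. In bulk tissue, fewer cells of a type and less RNA per cell cannot be told apart. The part of the markers in the changes of the calcium cycling genes was not tested.

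At 2 weeks, the only time with Sham hearts of the same time point, none of the 9 genes passed, and 0% of the 10173 genes tested did. At an unadjusted p under 0.05, none of the 9 and 556 of all genes passed. By edgeR and DESeq2 on recovered reads, none of the 9 was called at 2, 10 or 20 weeks, and 0 and 57 of all genes were called at 2 weeks. The log2 fold change was below 0 for 8 of the 9 genes, with a median of -0.20, beside -0.07 over all genes. The lowest was Pln at -0.41 (adjusted p = 0.840, 95% interval -0.91 to 0.09), and Trdn at 0.15 was the only value above 0. Atp2a2 averaged 2955 ± 980 normalised counts in MR hearts (SD, n = 4) and 3797 ± 1641 in Sham hearts (SD, n = 5). These groups overlapped, and the 95% interval of the log2 fold change ran from -1.10 to 0.50.

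At 10 weeks, all 9 log2 fold changes were below 0, with a median of -0.17 beside 0.06 over all genes. None passed the adjusted threshold, and 0.168% of 10096 genes did. Jph2 and Trdn reached an unadjusted p under 0.05, as did 1212 of all genes. Jph2 had 29.1, 23.6, 19.9, 28.8 and 54.0 normalised counts in MR hearts, against 60.6, 30.9, 24.5, 108 and 105 in Sham hearts. The 2 lowest Sham libraries lay in the MR range, and the log2 fold change was -0.90 (limma adjusted p = 0.360). Trdn had 18.2, 16.1, 13.7, 12.4 and 13.2 normalised counts in MR hearts, against 20.7, 20.1, 14.95, 17.1 and 22.0 in Sham hearts, a log2 fold change of -0.34 (limma adjusted p = 0.361).

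At 20 weeks none of the 9 genes passed, none reached an unadjusted p under 0.05, and 0.0698% of 10025 genes were called. The median log2 fold change was 0.20, beside -0.0027 over all genes, and 6 of the 9 values were above 0. Atp2a2 had the highest at 0.32 (limma adjusted p = 0.781, 95% interval -0.29 to 0.93). Jph2 differed more within the MR group than between groups. It had 12.8, 42.2, 63.9, 67.7 and 131 normalised counts in MR hearts, against 58.5, 30.1, 24, 105 and 102 in Sham hearts.

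The comparisons with Sham share the 5 Sham libraries, so contrasts between MR times were taken from 1 limma model over the 24 libraries and 9984 genes, on values rescaled by the median of gene-wise ratios. On that scale, the 5 MR libraries at 40 weeks lay above all 19 other libraries for Atp2a2, Ryr2, Slc8a1 and Jph2. How many of all 9984 genes showed this separation was not counted, so it cannot be said whether it is unusual. The lowest of them had 194 rescaled counts of Jph2, against 139 in the highest of the other libraries. For Atp2a2 these values were 5747 and 5414, for Ryr2 701 and 661, and for Slc8a1 130 and 125, so the margin was narrow for these 3 genes. For the other 5 genes the ranges overlapped.

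**Figure D4:**
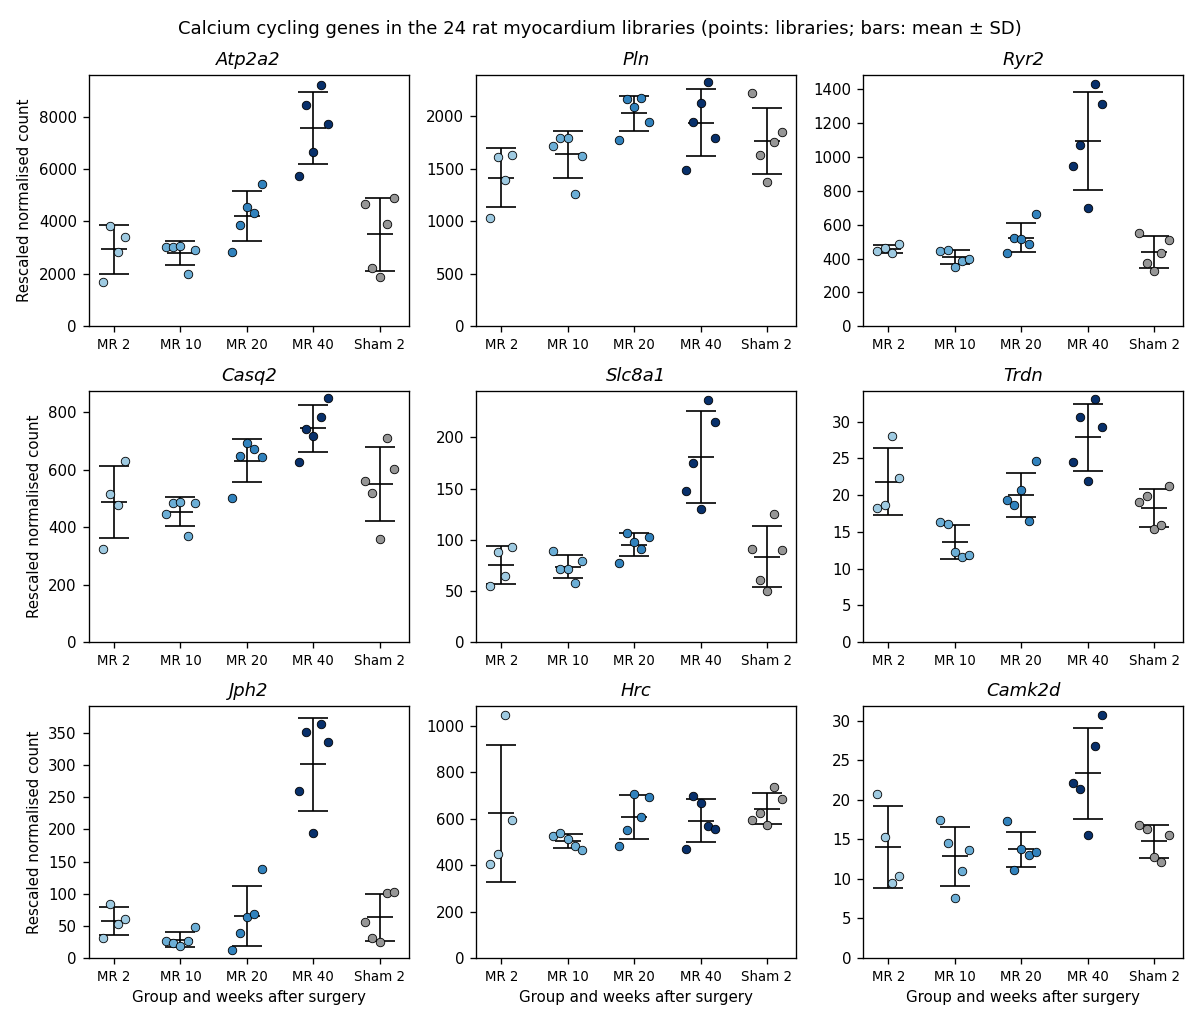
Rescaled normalised counts of the 9 genes in the 24 libraries, one panel per gene, by group and weeks after surgery, with axes that start at 0. Points are libraries and bars give the mean ± SD. MR libraries at 40 weeks stand above all others in the panels of Atp2a2, Ryr2, Slc8a1 and Jph2, and the groups overlap in those of Pln and Hrc.

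Between 20 and 40 weeks of MR, 6 of the 9 genes rose and none fell, while 38.8% of all genes were called and 21.3% were called higher. The genes were Jph2 (log2 fold change 2.52, limma adjusted p = 1.40e-04), Ryr2 (1.03, 5.98e-05), Slc8a1 (0.89, 0.00156), Atp2a2 (0.86, 0.0127), Camk2d (0.70, 0.00895) and Trdn (0.46, 0.0144). All 6 kept their call in each of the 10 omissions of a library. Without the span trend, Camk2d (0.39, adjusted p = 0.118) and Trdn (0.19, adjusted p = 0.273) did not pass, and with values as deposited Trdn did not (0.30, adjusted p = 0.0849). Over all genes, 2122 were higher and 1753 lower on the rescaled values, and 1395 were higher and 2601 lower as deposited, where the median of all genes was -0.13. Jph2 averaged 301 ± 72.4 rescaled counts at 40 weeks and 64.8 ± 47.0 at 20 weeks (SD, n = 5 each). Casq2 (0.24), Hrc (-0.04) and Pln (-0.08) did not pass.

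Between 2 and 10 weeks of MR, Trdn alone among the 9 genes passed, and 1.37% of all genes were called. It had 16.3, 16.1, 12.3, 11.6 and 11.9 rescaled counts at 10 weeks, against 18.2, 18.7, 28.1 and 22.4 at 2 weeks. The groups did not overlap, and the log2 fold change was -0.64 (limma adjusted p = 0.0320). The call held in 3 of 9 omissions of a library and was lost with values as deposited (-0.54, adjusted p = 0.0654). Between 10 and 20 weeks no gene of the 9 passed, and 0.01% of all genes, a single gene, were called. All 9 log2 fold changes were above 0, and 4 had an unadjusted p under 0.05, as had 1516 of the 9984 genes: Trdn (0.53, adjusted p = 0.219), Casq2 (0.47, 0.251), Atp2a2 (0.57, 0.314) and Ryr2 (0.35, 0.321).

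Between 2 and 40 weeks of MR, 7 of the 9 genes rose, against 45.7% of all genes called and 24.3% called higher. They were Jph2 (log2 fold change 2.42), Atp2a2 (1.41), Slc8a1 (1.25), Ryr2 (1.22), Camk2d (0.73), Casq2 (0.64) and Pln (0.46), with limma adjusted p-values of 3.28e-05 to 0.0316. Pln passed in 4 of 9 omissions of a library. With values as deposited, Pln (0.29, adjusted p = 0.219) and Casq2 (0.48, adjusted p = 0.05004) did not pass, and without the span trend Camk2d did not (0.46, adjusted p = 0.0692). Over all genes, 2428 were higher and 2130 lower on the rescaled values, and 1602 were higher and 3052 lower as deposited. Trdn (0.34, adjusted p = 0.0669) and Hrc (0.02) did not pass.

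Libraries of the same group differed from each other in several of these genes at once. Sham replicate 3 had the lowest rescaled count of its group for 8 of the 9 genes, with 1863 for Atp2a2 against 4910 in Sham replicate 5. Replicate 1 was lowest for 7 of the 9 genes in MR at 2 weeks, and likewise replicate 1 for 7 in MR at 20 weeks. Over the 24 libraries, deviations from the group mean of log2 values correlated with those of Atp2a2 at r = 0.83 for Casq2, 0.81 for Slc8a1 and Pln, 0.76 for Jph2 and 0.65 for Ryr2. The correlation was 0.45 for Trdn, 0.37 for Hrc and -0.08 for Camk2d, and its median over all genes was -0.03. Pln varied with Atp2a2 within groups, and of this pair only Atp2a2 passed against Sham at 40 weeks. The genes most like Atp2a2 over the 24 libraries outside the calcium cycling genes were Acot2 (Pearson r = 0.983), an acyl-CoA thioesterase of mitochondria, Hspa9 (0.982), a mitochondrial chaperone, and Idh3a (0.978), a subunit of a citric acid cycle enzyme. These libraries share their groups, so group differences enter these values; within groups they were 0.968, 0.950 and 0.956.

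Other genes of calcium handling were taken from a list of 59 in 7 roles. At 40 weeks 46 of them were tested, of which 16 rose, 5 fell and 25 did not pass, a called share of 45.7% beside 47.3% of all genes. The share that rose was 34.8%, beside 16.3%. Their median log2 fold change was 0.13, beside -0.15 over all genes. After median-ratio rescaling 19 rose and 3 fell, while over all genes 2391 were higher and 2196 lower. With the span trend removed 21 rose and 3 fell, while over all genes 2190 were higher and 2072 lower. The share of all genes called higher is thus larger under both settings than the 16.3% above. This list too was made with earlier results of these data known. The genes that rose include Camk2b, which passed the filter on low values only through the MR libraries.

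The 6 with the smallest p were Camk2b, Jph1, Akap6, Camk2g, Letm1 and Slc8b1. Camk2b and Camk2g, the beta and gamma isoforms of the kinase, had log2 fold changes of 1.81 ± 0.20 and 1.04 ± 0.17 (SE, limma adjusted p = 1.30e-04 and 4.44e-04). Camk2b averaged 5.57 ± 1.73 normalised counts in MR hearts and 0.86 ± 0.38 in Sham hearts (SD, n = 5 each). Its Sham mean was under 1, so it passed the filter on low values only through the MR libraries where it was high. Its place among the smallest p-values is therefore not independent of that filter. Jph1, the junctophilin best known from skeletal muscle, had a log2 fold change of 2.08 (adjusted p = 1.30e-04), with 10.1 ± 2.82 normalised counts in MR hearts and 1.68 ± 0.90 in Sham hearts. Akap6, an anchoring protein for protein kinase A near the ryanodine receptor, had a log2 fold change of 2.07 (adjusted p = 1.82e-04). Letm1, a protein of the inner mitochondrial membrane, rose with 1.10 (adjusted p = 6.15e-04). Slc8b1, the mitochondrial sodium-calcium exchanger, fell with -0.93 (adjusted p = 7.63e-04), at 4.40 ± 0.77 normalised counts in MR hearts and 9.43 ± 2.51 in Sham hearts. Each of these 6 passed under every alternative run, with the limit given above for Camk2b.

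By role, 4 of 11 tested partners of the release unit and dyad rose and 3 fell. Of 5 sarcolemmal channel subunits 2 rose, of 7 sarcolemmal pump genes 3 rose, and of 5 genes of mitochondrial calcium transport 3 rose and 1 fell. Of 10 other pump regulators, phosphatases and luminal proteins 2 rose and 1 fell. Of 5 other isoforms 2 rose, Camk2g and the filter-dependent Camk2b, and none of 3 inositol trisphosphate receptors passed. At 2, 10 and 20 weeks none of the 45, 46 and 46 genes tested passed by limma, and 4, 8 and 7 had an unadjusted p under 0.05, beside 556, 1212 and 951 of all genes. By edgeR none passed either, and by DESeq2 1 passed at 2 weeks. For the 20 week table, 1 passed by DESeq2, 1 with array weights and up to 1 with a library left out. The smallest p at 20 weeks was that of Camk2b, with 3.54 ± 1.51 normalised counts in MR hearts and 0.85 ± 0.37 in Sham hearts (SD, n = 5 each) and a log2 fold change of 1.26 (limma adjusted p = 0.0722), followed by Hspb6 (0.49) and Calm3 (0.42). At 10 weeks the smallest p-values were those of Calm3 (0.50), Ppp1r1a (-0.54) and Camk2b (0.57), and at 2 weeks of S100a1 (-0.59), Atp2b4 (0.49) and Ppp1r1a (-0.40), none of which passed. At 10 and 20 weeks too, the Sham mean of Camk2b was under 1, and it passed the filter on low values only through the MR libraries.

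**Figure D5:**
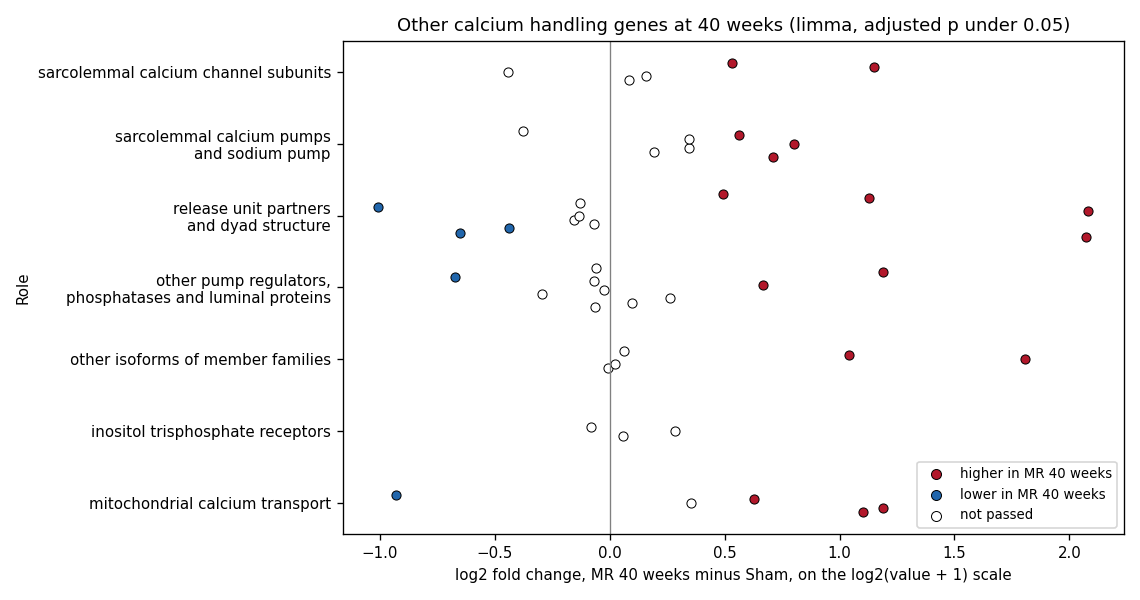
Log2 fold change of MR at 40 weeks minus Sham on the log2(value + 1) scale for the 46 other calcium handling genes tested, one row per role. Red points rose, blue points fell and open points did not pass. The red points include Camk2b, which passed the filter on low values only through the MR libraries. Red points reach 2.08 in the row of release unit partners and dyad structure, which also holds 3 of the 5 blue points.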

How the data were processed

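RNA-seq of rat myocardium was analysed in 24 libraries, grouped by the labels' surgery and time. Partek and build rn6 are named in the submitters' processing notes. The aligner, annotation, counting rule, strand setting and scaling are not given in the sources here, so reads of overlapping or antisense genes may be counted together. The deposited values have the unit signal, normalised gene counts scaled by the authors with 1 factor per library and table. Undoing the factor gave values within 0.1 read of a whole number for 97.7% to 97.8% of values up to 1000 reads, and 7.69 to 12.1 M recovered reads per library. Coordinates of genes are those of the tables.

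Each table was tested separately with limma 3.58.1 in R 4.3.3 on log2(value + 1), two-sided, with variances moderated along their trend with the mean, for genes with a mean of at least 1. Fold changes on this scale understate changes of genes with low values. MR times were compared in a single limma fit of all libraries after median-ratio rescaling, with Sham values from the 2 week table. Ratios were compared by exact permutation of libraries. The design foresaw a test for scaled values, and count tests on recovered reads served as alternatives: edgeR (4.0.16) and DESeq2 (1.42.0), calling 4602 and 4827 genes at 40 weeks. The scripts were tested on simulated data. Other alternatives were a pseudocount of 0.5, no filter, rescaling, array weights, leaving out each library, and removal of the trend with genomic span, the last chosen after seeing the data. The genes described, the other gene lists and the markers were chosen with earlier results of these data known. Named outside the 10 genes are at most 6 called calcium handling genes per comparison with the smallest p, or the 3 with the smallest p where fewer than 3 were called, and the 3 genes most like Atp2a2. Likeness to Sln could not be computed.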

Additional observations from a re-analysis of the deposited data

Results flagged for a closer look

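Among 45 groups of libraries checked, each a gene in a group, 3 had a library far from the others of its group, where chance gives about 1 in 20. MR replicate 4 at 10 weeks had 1990 rescaled counts of Atp2a2, against 2903 to 3065 in the other 4 libraries. MR replicate 1 at 20 weeks had 500.3 rescaled counts of Casq2, against 645 to 694 in the others. MR replicate 5 at 10 weeks had 48.5 rescaled counts of Jph2, against 17.9 to 26.7 in the others.

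Consecutive MR times differed by a test of the difference itself for 7 results. Between 20 and 40 weeks, the log2 difference was 0.86 for Atp2a2, 1.03 for Ryr2, 0.89 for Slc8a1, 0.46 for Trdn, 2.52 for Jph2 and 0.70 for Camk2d. Without the span trend Camk2d and Trdn lost this call, and as deposited Trdn did. Between 2 and 10 weeks it was -0.64 for Trdn, a call lost as deposited.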

How the results depend on the processing

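Of 536 values recomputed under alternatives other than omissions of a library, 493 stayed the same, and 9 calls of single genes were lost. For a gene or a ratio, the same means that its direction and its side of the threshold were kept. For a count of genes called it means close to the main count. The fall from 6 to 4 of the 9 genes called at 40 weeks without the span trend is therefore among the 493. Between 20 and 40 weeks the lost calls were Trdn (0.30 as deposited, 0.19 without the span trend) and Camk2d (0.39 without the span trend), and between 2 and 40 weeks Casq2 (0.48) and Pln (0.29) as deposited and Camk2d (0.46) without the span trend. The other 3 were Camk2d and Trdn at 40 weeks without the span trend (0.27 each) and Trdn between 2 and 10 weeks as deposited (-0.54). The cause of the changes was not tested. Log2 fold changes that changed sign were mostly near 0. Ryr2 at 2 weeks came to 0.067 after median-ratio rescaling, 0.033 with edgeR, 0.045 with DESeq2 and 0.046 without the span trend. Jph2 came to 0.0055 at 2 weeks with array weights, and to 0.031 with edgeR and 0.037 with DESeq2 at 20 weeks. At 40 weeks, Pln came to 0.11, 0.092, 0.11 and 0.21 with rescaling, edgeR, DESeq2 and the span trend removed. Hrc at 40 weeks was not near 0 in the main fit, at -0.31, and came to 0.085 with the span trend removed. Between 2 and 10 weeks, values as deposited gave 0.089 for Atp2a2, 0.0052 for Camk2d, 0.044 for Casq2, 0.10 for Slc8a1 and 0 genes of the 9 called, and removing the span trend gave 0.032 for Atp2a2 and 0.062 for Slc8a1. Without that trend, Hrc was 0.20 and Pln 0.041 between 20 and 40 weeks. Between 2 and 40 weeks, Hrc was -0.15 as deposited and -0.094 with edgeR. The count of all genes called was 57 with DESeq2 and 22 with array weights at 2 weeks. At 10 weeks it was 5 with rescaling, 5 with edgeR, 83 with DESeq2, 27 with array weights and 9 without the span trend. At 20 weeks it was 92 with DESeq2 and 30 with array weights, and between 10 and 20 weeks 26 as deposited. With 1 library left out, genes called were 0 to 29 at 10 weeks, 2 to 14 at 20 weeks, 52 to 300 between 2 and 10 weeks and 1 to 4 between 10 and 20 weeks, and 0 to 1 of the 9 genes were called between 2 and 10 weeks. Signs changed within these ranges: Ryr2 -0.13 to 0.11 and Jph2 -0.38 to 0.17 at 2 weeks; Ryr2 -0.13 to 0.091, Slc8a1 -0.24 to 0.13 and Pln -0.14 to 0.071 at 10 weeks; Jph2 -0.45 to 0.37 at 20 weeks; Pln -0.16 to 0.057 at 40 weeks. Between 2 and 10 weeks they were -0.27 to 0.12 for Atp2a2, -0.15 to 0.10 for Slc8a1, -0.25 to 0.10 for Camk2d, -0.25 to 0.069 for Casq2 and -0.37 to 0.085 for Hrc. Between later times they were -0.037 to 0.24 for Camk2d (10 to 20 weeks), -0.12 to 0.041 for Hrc and -0.15 to 0.014 for Pln (20 to 40 weeks), and -0.16 to 0.30 for Hrc (2 to 40 weeks). The log2 ratio difference of Pln to Atp2a2 was -0.23 to 0.0085 at 2 weeks, and that of Slc8a1 to Atp2a2 was -0.0014 to 0.21 at 2 weeks, -0.18 to 0.020 at 20 weeks and -0.15 to 0.053 at 40 weeks. No paired analysis was possible because replicate numbers only name libraries. Tables list only genes read in every library, and each listed gene had at least 31 recovered reads in its highest library. A gene absent from a library, or low in all of them, therefore cannot be seen.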
